A study of Mus musculus with 12 samples.

Results

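Nfasc, Chil1 and Lrrc26 are 3 genes that were higher in mammary tumors of mice fed the rexinoid V-125. They were also measured by quantitative PCR, whose values were not used here. Chil1 is the current mouse symbol of the gene the study calls Chi3l1. The 3 genes were taken by name from the 1589 genes that the authors listed for V-125 against control, and 2 of them, Nfasc and Lrrc26, are also among the 1784 genes listed for bexarotene. They were chosen because they differed in the V-125 comparison, so that their difference between V-125-treated and control tumors is described here without a test.

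Female mice of the genotype MMTV-Neu carry a Neu (HER2) transgene under the promoter of the mouse mammary tumor virus, which drives it mainly in the mammary gland, and they develop HER2-positive mammary tumors. All 12 tumors were of this genotype. Tumor-bearing mice received a control diet with vehicle (4 tumors), a diet with 100 mg of V-125 per kg (4 tumors) or a diet with 100 mg of bexarotene per kg (4 tumors) for 10 days. RNA of whole frozen tumor tissue was sequenced after polyA enrichment, and each tumor came from a different mouse. Because whole tissue was used, fewer cells of a type and less RNA per cell cannot be told apart. Values of single tumors were used for the 8 V-125-treated and control tumors, and the authors' group means were used for bexarotene. Reads counted on genes ranged from 15571690 to 22574865 per tumor, with medians of 17864015 in V-125-treated and 18389133 in control tumors. Values are given as normalized counts, which are read counts divided by 1 size factor per tumor, or as FPKM where genes of different length are compared.

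V-125 and bexarotene are ligands of the retinoid X receptor (RXR), a nuclear receptor that binds DNA as a dimer with itself or with receptors for retinoic acid, vitamin D, thyroid hormone, oxysterols or fatty acids. The 3 genes encode unrelated proteins. Nfasc encodes neurofascin, an adhesion molecule of the L1 family in the immunoglobulin superfamily, which is known for anchoring to ankyrin at the axon initial segment and the node of Ranvier. Chil1 encodes a secreted chitinase-like glycoprotein, known as YKL-40 in humans and BRP-39 in mice, which binds chitin but has no chitinase activity and is produced by epithelial cells, macrophages and neutrophils. Lrrc26 encodes a leucine-rich repeat membrane protein that serves as an auxiliary gamma subunit of the large-conductance, calcium-activated potassium (BK) channel in secretory epithelia such as salivary, lacrimal and mammary gland.

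On GRCm38, Nfasc (ENSMUSG00000026442) lies on the minus strand of chromosome 1 from 132564690 to 132741797, Chil1 (ENSMUSG00000064246) on the plus strand of chromosome 1 from 134182176 to 134190181, and Lrrc26 (ENSMUSG00000026961) on the plus strand of chromosome 2 from 25289915 to 25291180. All 3 are protein-coding. GENCODE annotates 10 transcripts of Nfasc, 8 of Chil1 and 1 of Lrrc26. The longest coding transcripts have 32, 10 and 2 exons and open reading frames of 1347, 389 and 331 codons. The deposited values sum all transcripts of a gene, and they do not tell which isoform of Nfasc was measured.

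Sequence before the annotated start is shown for each gene, because RXR dimers bind repeats of the hexamer AGGTCA and because Chil1 and Lrrc26 are described below as varying together. Each line holds the 250 bases before a RefSeq transcript start (GRCm38.p6), 5′ to 3′ on the strand of the gene, with AGGTCA, or GGGCGG on either strand, in capitals. The Nfasc window, chr1:132642859-132643108 on the minus strand, lies in an intron of the longer transcripts, and its RefSeq start is 5767 bases from the nearest GENCODE transcript start of Nfasc. For Chil1 and Lrrc26 these starts are 20 and 4 bases apart. The Chil1 window is chr1:134181906-134182155 and the Lrrc26 window chr2:25289661-25289910, both on the plus strand and both outside any annotated gene.
Nfasc: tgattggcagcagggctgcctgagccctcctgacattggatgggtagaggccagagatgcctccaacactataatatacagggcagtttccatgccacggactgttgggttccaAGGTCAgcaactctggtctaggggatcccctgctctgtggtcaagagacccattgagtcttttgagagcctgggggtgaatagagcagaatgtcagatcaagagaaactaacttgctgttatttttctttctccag
Chil1: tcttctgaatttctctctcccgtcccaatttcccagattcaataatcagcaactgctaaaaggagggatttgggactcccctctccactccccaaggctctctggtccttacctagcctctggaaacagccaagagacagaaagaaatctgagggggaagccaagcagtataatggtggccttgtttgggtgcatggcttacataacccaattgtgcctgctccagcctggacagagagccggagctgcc
Lrrc26: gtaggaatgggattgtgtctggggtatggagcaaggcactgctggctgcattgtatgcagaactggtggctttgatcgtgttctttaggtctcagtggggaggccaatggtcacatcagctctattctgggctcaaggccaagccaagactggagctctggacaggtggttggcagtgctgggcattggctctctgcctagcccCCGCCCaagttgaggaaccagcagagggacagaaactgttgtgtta
The printed Nfasc window, which lies in an intron, held AGGTCA from 136 to 131 bases before its RefSeq start. This hexamer is present in 14.0% of all 32851 RefSeq promoter windows of this length. A second Nfasc window, chr1:132707327-132707576, overlaps an annotated UTR and is not printed. Its RefSeq start is 0 bases from a GENCODE transcript start of Nfasc. This second window held no AGGTCA. It held GGGCGG, the core of the GC box, from 175 to 170 bases before its start. Lrrc26 held GGGCGG on the opposite strand from 46 to 41 bases before the start, and 32.7% of all windows held it. The Chil1 window held neither hexamer. None of the 4 windows held TATAAA (12.4% of all windows), TTCNNNGAA (7.02%) or a direct repeat of AGGTCA with a gap of 1 to 5 bases, on either strand. Each of these repeats was in at most 0.0335% of all windows. The letters describe these windows only.

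Nfasc was the gene with the largest difference of the 3. In the V-125-treated tumors its normalized counts were 708, 992, 334 and 1059 for replicates 1 to 4. The control tumors had 109.5, 172, 232 and 124.6 in the same order of replicates. The groups did not overlap, and V-125 replicate 3 stood closest to the controls, 1.44-fold above the highest of them. The means were 773 ± 329.9 (SD, n = 4) and 159.5 ± 55.0 (SD, n = 4), a 4.85-fold difference. Its log2 fold change in edgeR was 2.27 (standard error 0.39), and with V-125 replicate 3 left out it was 2.53. V-125-treated tumors differed from each other by up to 3.17-fold and control tumors by up to 2.11-fold.

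Chil1 was the most abundant of the 3 genes. With V-125 its normalized counts were 11411, 6135, 7092 and 7116 (replicates 1 to 4). With the control diet they were 4715, 1914, 1961 and 1398 (replicates 1 to 4). The groups did not overlap, although control replicate 1 was far above the other 3 controls and within 1.30-fold of the lowest V-125-treated tumor. The means were 7938 ± 2359.5 (SD, n = 4) and 2497 ± 1500.5 (SD, n = 4), a 3.18-fold difference. The log2 fold change in edgeR was 1.67 (standard error 0.38), and without control replicate 1 it was 2.17 (standard error 0.26).

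Lrrc26 had the smallest gap between groups. The V-125-treated tumors had 2041, 1033, 1463 and 1497 normalized counts (replicates 1 to 4), and the control tumors had 945, 481, 569 and 417 (replicates 1 to 4). The lowest V-125-treated tumor, replicate 2, was only 1.09-fold above the highest control tumor, which was again replicate 1. The means were 1509 ± 413 (SD, n = 4) and 603 ± 237 (SD, n = 4), a 2.50-fold difference, and the log2 fold change in edgeR was 1.32 (standard error 0.29).

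**Figure D1:**
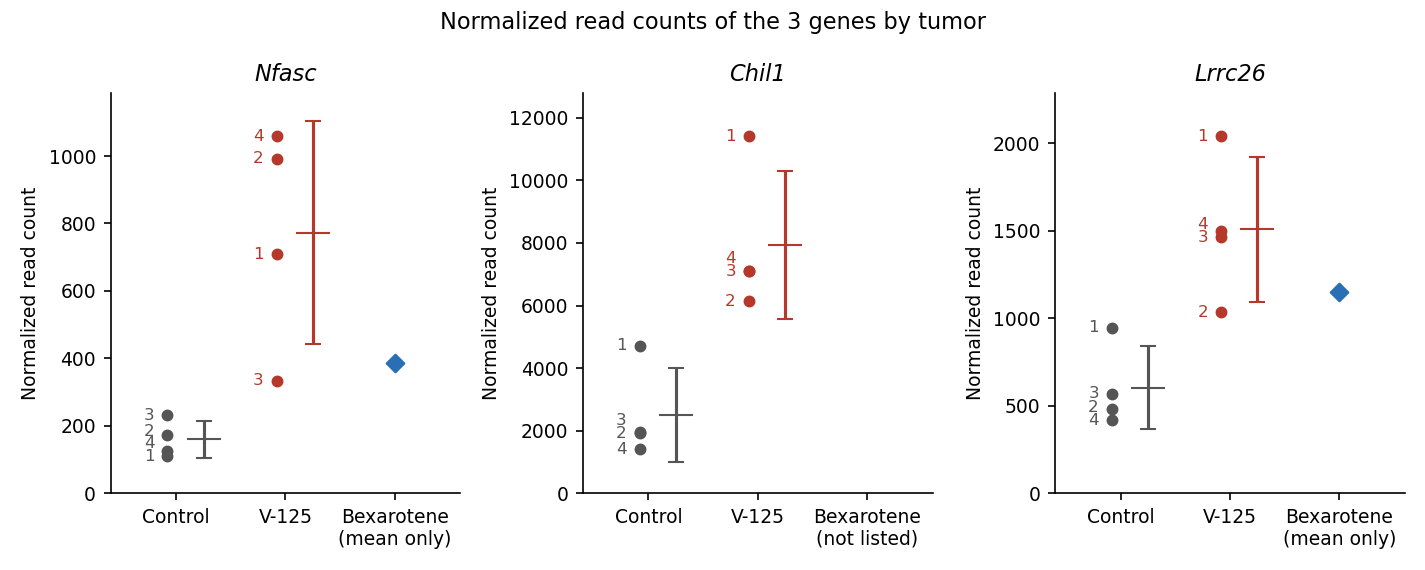
Normalized read counts (linear vertical axis from 0, 1 panel per gene) in single control and V-125-treated tumors, numbered by replicate, with the mean and SD of 4 tumors beside the points; the diamond is the authors' mean for bexarotene, which has no error here. V-125 replicate 3 is the lowest V-125-treated tumor for Nfasc at 334, while control replicate 1 is the highest control tumor for Chil1 at 4715 and for Lrrc26 at 945.

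For all 3 genes each V-125-treated tumor was above each control tumor. This held for 335 of the 1589 listed genes (21.1%), and for 279 (17.6%) each V-125-treated tumor was below each control tumor. A higher mean with V-125, as for all 3, was found for 51.4% of the listed genes. The list holds only genes that the authors' comparison gave an unadjusted p-value of at most 0.05, and the genes were picked from it, so that nothing is read from these shares. Among the 1333 listed genes with enough reads for the edgeR fit, the median log2 fold change was 0.36 and the median absolute log2 fold change 0.77. Of these genes, 29 had a larger log2 fold change than Nfasc, 76 a larger one than Chil1 and 138 a larger one than Lrrc26. By mean normalized count over the 8 tumors, Chil1 ranked 76th, Lrrc26 360th and Nfasc 602nd of the 1589 genes.

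**Figure D2:**
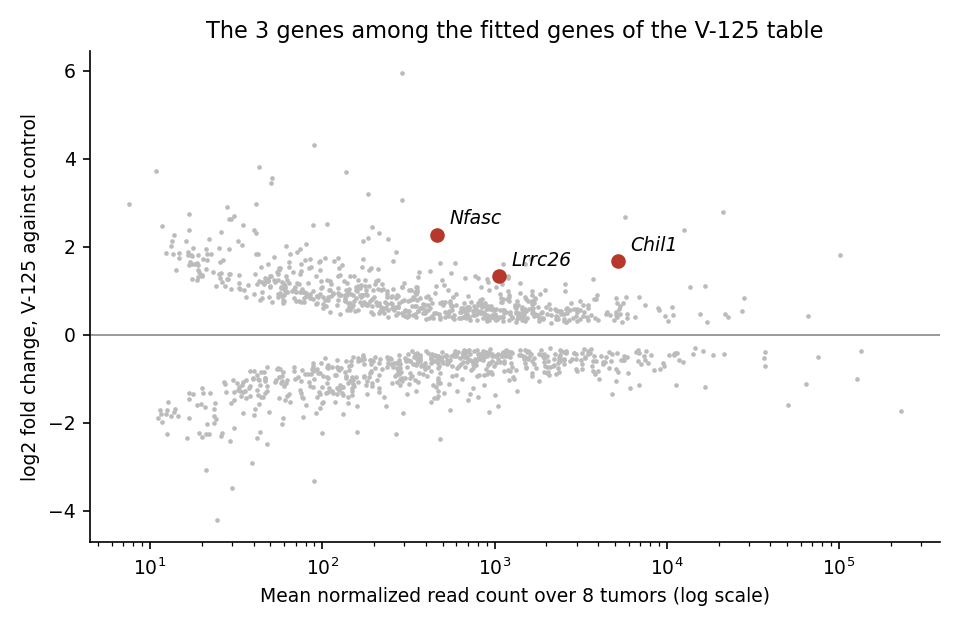
Log2 fold change of V-125-treated against control tumors in edgeR (vertical axis) against the mean normalized read count over 8 tumors (horizontal axis, log scale) for the 1333 fitted genes, with the 3 genes in red. The band without points around 0 reflects that only genes past the authors' p-value are listed; Nfasc at 2.27, Chil1 at 1.67 and Lrrc26 at 1.32 lie above the median of 0.36.

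Per length of the gene, the order of the levels was the same in all 8 tumors, with Chil1 above Lrrc26 and Lrrc26 above Nfasc. Chil1 had an FPKM of 157 ± 47.9 (SD, n = 4) in V-125-treated and 49.5 ± 29.9 (SD, n = 4) in control tumors. The FPKM of Lrrc26 was 70.4 ± 19.7 (SD, n = 4) and 28.1 ± 11.1 (SD, n = 4). Nfasc reached an FPKM of 3.03 ± 1.29 (SD, n = 4) with V-125 against 0.625 ± 0.215 (SD, n = 4) in control tumors. The FPKM of Chil1 was 2.02- to 2.52-fold that of Lrrc26 in V-125-treated tumors and 1.42- to 2.12-fold in control tumors, and these ranges overlapped. The FPKM of Lrrc26 was 12.4- to 52.1-fold that of Nfasc with V-125 and 29.2- to 102.6-fold in control tumors. The deposited gene lengths, 14145 bases for Nfasc, 2804 for Chil1 and 1190 for Lrrc26, cover all annotated exons, so that the FPKM of a gene with many isoforms depends on which of them are expressed.

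All 3 genes varied more between tumors of the same group than most listed genes of similar level. On the log2 scale, the SD within groups was 0.64 for Nfasc, 0.60 for Chil1 and 0.46 for Lrrc26. The median SD among listed genes of like level was 0.34 (387 genes), 0.29 (120 genes) and 0.30 (368 genes), and 85.0%, 93.3% and 78.3% of these genes had a smaller SD. Listed genes passed a p-value, which a gene with a small difference between groups passes only if its spread is small. The comparison therefore does not tell whether the 3 genes vary more than unlisted genes. The spread of Nfasc was larger among V-125-treated tumors (log2 SD 0.76) than among control tumors (0.48). Chil1 was the reverse, with 0.39 among V-125-treated and 0.75 among control tumors. With 4 tumors per group these SDs are themselves imprecise, and the difference between groups in spread was not tested.

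The deviations from the group mean showed which genes varied together within a diet, a property that the choice of the genes did not use. Chil1 and Lrrc26 deviated in parallel. V-125 replicate 1 was 0.57 above its group mean for Chil1 and 0.48 for Lrrc26 on the log2 scale, and control replicate 1 was 1.08 and 0.72 above. V-125 replicate 2 was the lowest V-125-treated tumor and control replicate 4 the lowest control tumor for both genes. Over the 8 tumors, with group means removed, Pearson's r was 0.95 (exact permutation test within groups, two-sided p = 0.00174, the smallest that its 576 orders allow, 0.00521 after Benjamini-Hochberg adjustment over 3 pairs). Spearman's rho was 0.98 with the same p-values in the exact permutation test. The parallel was present in each group, with r = 0.92 among the 4 V-125-treated tumors and 0.98 among the 4 control tumors. With any 1 tumor left out r was between 0.91 and 0.99, and without the 2 tumors farthest from the median of Chil1, replicate 1 of each group, it was 0.81.

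Nfasc did not show such a parallel with either gene. Its r was −0.25 with Chil1 (exact permutation test, two-sided p = 0.516, adjusted p = 0.516) and −0.27 with Lrrc26 (exact permutation p = 0.497, adjusted p = 0.516). The rho values were −0.21 (exact permutation p = 0.660, adjusted p = 0.660) and −0.29 (exact permutation p = 0.554, adjusted p = 0.660). Without control replicate 1 and V-125 replicate 3, the 2 tumors farthest from the median of Nfasc, r was −0.085 and −0.050. With 1 tumor left out it ranged from −0.53 to 0.11 for Chil1 and from −0.46 to −0.022 for Lrrc26, so that with 8 tumors a weak relation was not detectable. The 8 values of a pair share the library and the size factor of the tumor.

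**Figure D3:**
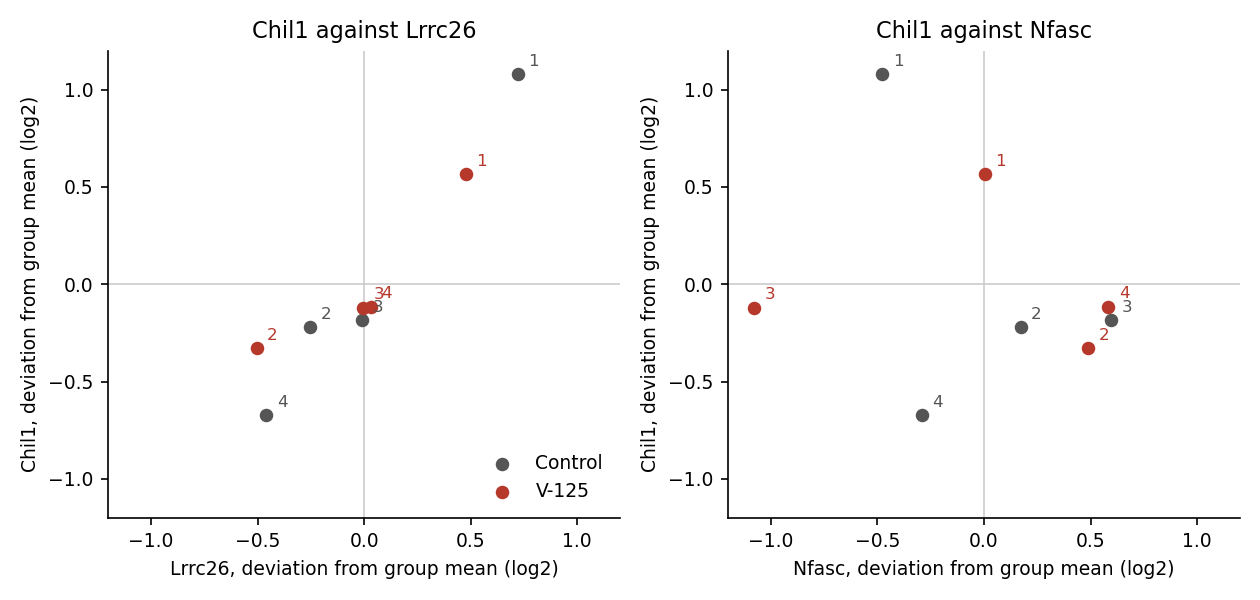
Deviation of each tumor from the mean of its own group (log2 of normalized count plus 1) for Chil1 (vertical axes) against Lrrc26 (left) and against Nfasc (right), with control tumors in grey, V-125-treated tumors in red and replicate numbers beside the points. The points rise together on the left (r = 0.95), with control replicate 1 at the upper end, and do not on the right (r = −0.25).

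The genes most like each of the 3 were taken by the same within-group Pearson correlation over 8 tumors among 1371 other listed genes with a mean normalized count of at least 10. For Chil1 they were Gsta3 (r = 0.98), a glutathione transferase, Ppp1r3c (0.97), a subunit that targets protein phosphatase 1 to glycogen, Fbxl19 (0.96), an F-box protein, Lrrc26 (0.95) and the mitochondrial ribosomal protein gene Mrpl24 (0.94). For Lrrc26 they were the noncoding gene Gm14022 (0.97), Gsta3 (0.95), Chil1 (0.95), Bglap3 (0.94), an osteocalcin-related gene, and Ppp1r3c (0.92). Chil1 and Lrrc26 thus had Gsta3 and Ppp1r3c in common and each other, at rank 4 for Chil1 and rank 3 for Lrrc26. Normalized counts of Gsta3 by replicate were 642, 353, 407 and 507 with V-125 and 418, 198, 190 and 137 with the control diet, so that control replicate 1 was above V-125 replicates 2 and 3. Likeness within groups did not always go with the direction between groups. Fbxl19 and Mrpl24 had lower means with V-125, with log2 ratios of −0.48 and −0.41. The other genes named for Chil1 and Lrrc26 had higher means with V-125, as had 51.4% of all listed genes.

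For Nfasc the most like genes were Itgb5 (r = 0.95), the beta 5 integrin, Acss1 (0.93), a mitochondrial acetyl-CoA synthetase, Evc (0.89), a component of the primary cilium, Aass (0.89), which breaks down lysine, and Mr1 (0.86), an antigen-presenting molecule related to MHC class I. All 5 had higher means with V-125 (51.4% of all listed genes), between 1.30-fold for Aass and 5.63-fold for Evc. In all 5 the groups overlapped, while 21.1% of all listed genes were above and 17.6% below the controls without overlap. In V-125 replicate 3, the lowest V-125-treated tumor for Nfasc, these genes were below their group mean as well. This follows from their choice, since they were taken for varying with Nfasc. An absolute r above 0.9 was found for 0.292% of the 1371 genes with Nfasc, 3.14% with Chil1 and 1.53% with Lrrc26. The lowest r was −0.99 for Chil1 and −0.97 for Lrrc26, both with CT030636.2. These correlations are a description of 8 tumors.

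**Figure D4:**
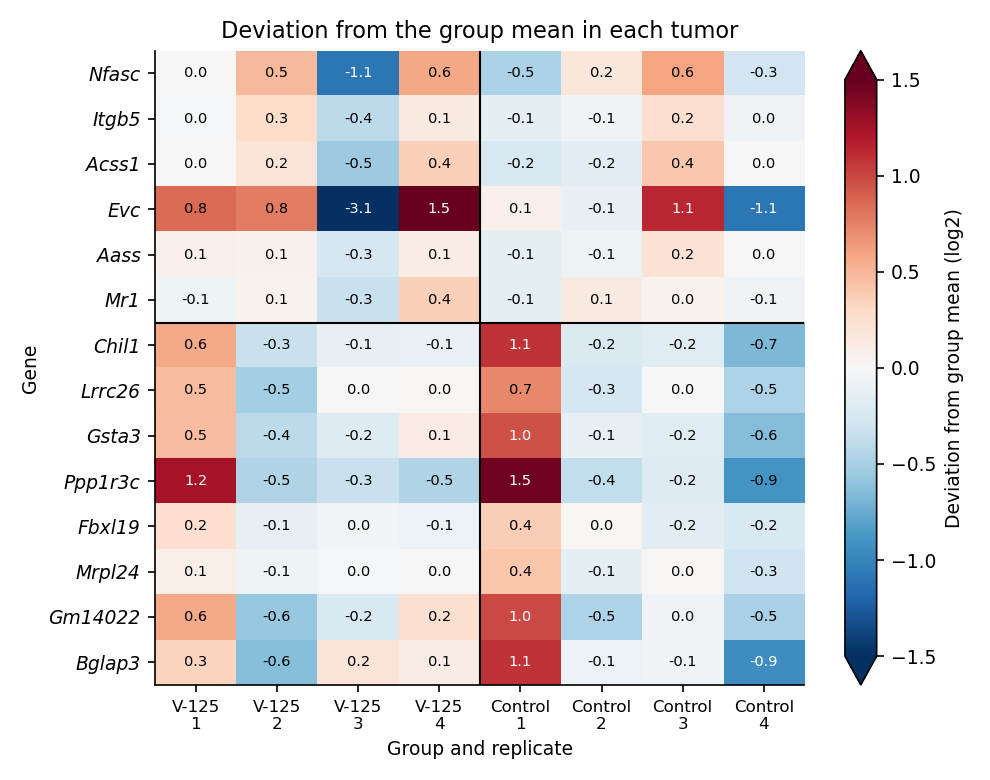
Deviation from the group mean (log2, color scale limited to −1.5 and 1.5, values printed in the cells) of the 3 genes and their most like genes (rows) in each tumor (columns, V-125 left of the line and control right of it). The upper block follows Nfasc, with low values in V-125 replicate 3. The lower block follows Chil1 and Lrrc26, with high values in replicate 1 of both groups. The most like genes were chosen by these deviations.

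The bexarotene comparison uses the same 4 control tumors, so that its values are set beside those of V-125 and not compared by a test. Nfasc had a mean normalized count of 387 with bexarotene and of 159 in controls (authors' means), a 2.44-fold ratio or 1.29 on the log2 scale. The corresponding log2 ratio of means with V-125 was 2.28. The mean of Nfasc with bexarotene was 50.1% of that with V-125, and it lay above all 4 control tumors and below 3 of the 4 V-125-treated tumors. Lrrc26 had a mean of 1150 with bexarotene and of 599.9 in controls (authors' means), a 1.92-fold ratio or 0.94 on the log2 scale, against 1.32 with V-125. The mean of Lrrc26 with bexarotene was 76.2% of that with V-125, and it too lay above all 4 control tumors and below 3 of the 4 V-125-treated tumors. Both bexarotene means fell inside the range of the V-125-treated tumors, and without values of single bexarotene tumors their order cannot be tested. By ratio of means, Nfasc ranked 225th and Lrrc26 316th of the 1784 genes listed for bexarotene, of which 43.3% had a higher mean with bexarotene. Chil1 is not listed there, so that no value of it with bexarotene is given. The tables were normalized separately, and control means of the bexarotene table were 0.992 to 0.997 times those of the V-125 table (445 genes).

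Genes that share a pathway with each of the 3 were looked up in the tables. A gene that is not listed did not reach the p-value of the list or was not in it for another reason. Of 25 genes of the axon initial segment and the node of Ranvier, 5 were listed for V-125. None of them had every V-125-treated tumor above every control tumor, beside 21.1% of all listed genes. Ank2, an ankyrin, was lower (9.98 ± 5.80 against 25.5 ± 10.5 normalized counts), and so were the other L1 family members Nrcam (5.84 ± 3.07 against 19.2 ± 15.7) and L1cam (194 ± 89.9 against 364 ± 134, SD, n = 4 each). Chl1, also of the L1 family, had a higher mean (1077 ± 347 against 610 ± 289), as had Epb41l3 (80.3 ± 33.7 against 38.9 ± 12.8), a membrane skeleton protein. Only Nrcam had no overlap between groups, with every V-125-treated tumor below the controls (17.6% of all listed genes). In the bexarotene table L1cam was lower (158 against 362, authors' means), and Chl1 (1112 against 606) and Epb41l3 (85.4 against 38.7) were higher. The median log2 ratio over the 5 genes was −0.91, beside 0.36 over the 1505 listed genes with counts in both groups.

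Of 10 genes of the chitinase family, 4 were listed for V-125. Chil6, another chitinase-like gene, was higher like Chil1 at a far lower level, with 23.1 ± 7.15 normalized counts against 6.27 ± 4.63 (SD, n = 4 each), and its groups did not overlap. The active chitinase Chit1 was lower (219 ± 139 against 632 ± 358) with overlapping groups, and the lysosomal chitobiase Ctbs was lower (132 ± 14.3 against 190 ± 27.4) without overlap. Chit1 was also lower in the bexarotene table (227 against 628, authors' means). Of 11 genes of receptors and partners described for the Chil1 protein, 3 were listed for V-125. Cd44, the hyaluronan receptor, was at 2191 ± 289 against 1243 ± 246.5 and in every V-125-treated tumor above every control tumor. The syndecan Sdc1 was at 768 ± 49.4 against 1167 ± 310 and below all controls. Itgb5 was at 10667 ± 1996 against 7039 ± 826 with overlapping groups. For bexarotene, Cd44 was higher (2072 against 1236), and Sdc1 (735 against 1160) and the galectin Lgals3 (124 against 434) were lower. Of 17 cytokines and transcription factors known to induce Chil1, only Tnf was listed for V-125, at a lower mean (26.3 ± 6.54 against 53.3 ± 26.1), with overlapping groups. The bexarotene table listed 4 of them, Stat3, Rela, Relb and Cebpb, all with lower means. Of all genes listed there, only 43.3% had a higher mean with bexarotene.

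Of 9 BK channel subunit genes, 2 were listed for V-125, Lrrc26 and the beta 1 subunit Kcnmb1. Kcnmb1 had few reads and a lower mean with V-125 (9.27 ± 3.54 against 28.2 ± 16.9 normalized counts, SD, n = 4 each), and its groups overlapped. The pore-forming subunit and the other gamma subunits of the set were not among the listed genes. Of 17 genes of RXR and its partner receptors, Rxrg and Nr4a2 were listed for V-125. Nr4a2, an orphan receptor that pairs with RXR, was at 150 ± 23.5 against 94.6 ± 17.8 with no overlap between groups, and it was also higher with bexarotene (184 against 94.1, authors' means). Rxrg had reads in few tumors, at 0 in all 4 control tumors and up to 24.5 normalized counts in a V-125-treated tumor. The bexarotene table also listed Rara, Rarg, Vdr and Thra, all with lower means, where 43.3% of all listed genes had a higher one.

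Markers of other cell types were also among the listed genes. Summed normalized counts of 5 listed markers of luminal and secretory epithelium (of 15) were 52520 to 274276 in V-125-treated and 292666 to 568241 in control tumors, highest in control replicate 1. Of these 5 markers, 4 had lower means with V-125 and 1, Prlr, had a higher one (1436 ± 291 against 1087 ± 167, SD, n = 4 each). The milk protein gene Csn1s1 was at 106078 ± 101399 and 353185 ± 114068 (SD, n = 4 each). The epithelial adhesion molecule Epcam was at 32209 ± 2776 and 42502 ± 7390 normalized counts (SD, n = 4 each). Of 19 markers of salivary and lacrimal gland, tissues in which Lrrc26 is active, 6 were listed, all 6 had higher means with V-125 (51.4% of all listed genes) and 3 had every V-125-treated tumor above the controls (21.1% of all listed genes). Their sum was 42403 to 73830 with V-125 and 6603 to 18687 in control tumors, and the secreted carbonic anhydrase Car6 among them was at 37316 ± 3338 and 5399 ± 4549 (SD, n = 4 each). Of these markers, 4 were listed for bexarotene, all with higher means, beside 43.3% of all genes listed there. The salivary and lacrimal markers were chosen with earlier results of these data known, so that nothing is read from these counts. Car6 makes up most of the sum. The bexarotene table also listed 7 macrophage markers, all 7 with lower means, and 6 luminal markers, 5 of them lower. It listed 3 basal markers, 2 of them lower, and 1 marker of Schwann cells and neurons, which was higher. A higher mean with bexarotene was found for 43.3% of all genes listed there. The fibroblast marker Pdgfrb was lower there (470 against 786, authors' means) and the adipocyte marker Fabp4 higher (530 against 157, authors' means). The myoepithelial genes Acta2 and Trp63 (2 of 8 basal markers) summed to 97.3 to 609 with V-125 and 525 to 1032 in controls.

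For cells that can produce Chil1, 2 of 12 macrophage markers, Itgam and Mertk, were listed. Their sum was 202 to 470 with V-125 and 217 to 261 in controls, and the 2 markers went in opposite directions. Itgam was lower in every V-125-treated tumor than in any control tumor (17.6% of all listed genes). Mertk had a higher mean with V-125 (264 ± 121 against 168 ± 13.1 normalized counts, SD, n = 4 each), with overlapping groups. Of 12 neutrophil markers only Lcn2 was listed, at 31187 to 49754 with V-125 and 54818 to 149412 in controls, again highest in control replicate 1. In controls the mean of Lcn2, 88417.5, was above the 42502 of Epcam. With no other neutrophil marker listed, Lcn2 is not read as a measure of neutrophils. For cells that can produce Nfasc, 3 of 14 markers of Schwann cells and neurons were listed. Their sum was 12173 to 14462 with V-125 and 14753 to 19136 in controls. Sox10, which was nearly all of this sum, and S100b were lower with V-125. Stmn2 had a higher mean (18.4 ± 11.2 against 6.78 ± 1.87 normalized counts, SD, n = 4 each), with overlapping groups. The sum is therefore not read as a measure of these cells. The endothelial receptor Kdr, the 1 listed of 8 endothelial markers, was at 539 to 835 with V-125 and 251 to 498 in controls. Within groups Kdr went against Chil1 (r = −0.99) and Lrrc26 (r = −0.94) over the 8 tumors. With no other endothelial marker listed, Kdr is not read as a measure of endothelial cells. Cd2, the 1 listed of 12 lymphocyte markers, was at 3.17 to 195 with V-125 and at most 5.59 in controls. The muscle gene Myh4 (1 of 7) reached 20.9 with V-125 and was at 0 in controls, and no marker of fibroblasts (of 8) or adipocytes (of 7) was listed for V-125. The part of these cell types in the levels of the 3 genes was not tested.

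The listed genes around each of the 3 were also examined. Nfasc and Chil1 lie on the same chromosome, with 1440379 bases between them. Within 2 Mb of the start of Nfasc, 12 other genes were listed, 10 with higher means (51.4% of all listed genes) and 4 with every V-125-treated tumor above the controls (21.1% of all listed genes). Whether these counts differ from those shares was not tested. These 4 included Chil1, the magnesium transporter gene Slc41a1 (6363 ± 1667 against 3889 ± 903 normalized counts) and Mfsd4a, a transporter family gene (1383 ± 88.9 against 654 ± 240, SD, n = 4 each). The nearest listed genes Tmcc2 (116 ± 30.1 against 70.8 ± 25.4), Pik3c2b (3597 ± 394 against 2412 ± 749) and Ppp1r15b (4188 ± 518 against 3059 ± 794) had higher means with overlapping groups, and Snrpe (586 ± 178 against 943 ± 438) had a lower one. Within 2 Mb of Chil1, 12 genes were listed, 8 with higher means (51.4% of all listed genes), and only Nfasc itself did not overlap (21.1% above and 17.6% below among all listed genes). Chit1 ends 30636 bases before Chil1 and was lower, as given above. Lax1 (31.9 ± 45.7 against 8.10 ± 3.36), Atp2b4 (168 ± 30.9 against 90.0 ± 38.4) and Syt2 (82.9 ± 27.5 against 42.0 ± 17.3) had higher means and Csrp1 (3689 ± 540 against 6692 ± 2160) and Lad1 (2787 ± 633 against 3956 ± 640) lower ones. An antisense gene, Gm10538, overlaps Nfasc and was not listed. Whether the counting used strand is not given in the sources used here, so that its reads cannot be told apart from those of Nfasc.

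Around Lrrc26, 13 genes were listed within 2 Mb, 8 with higher means, 4 with every V-125-treated tumor above the controls and 3 with every one below, beside 51.4%, 21.1% and 17.6% of all listed genes. Its direct neighbors were among those above. Grin1, a subunit gene of the NMDA receptor, lies on the opposite strand and ends 1 base beyond the end of Lrrc26. Grin1os, an antisense transcript of Grin1 on the strand of Lrrc26, begins 40 bases beyond it. Read counts of Grin1 by replicate were 53, 29, 29 and 22 with V-125 and 0, 10, 19 and 12 with the control diet. Those of Grin1os were 25, 20, 36 and 22 with V-125 and 0, 12, 11 and 12 in controls. Both genes were low in all control tumors and had no reads in control replicate 1. Each had 1.25% to 2.88% of the reads of Lrrc26 in the other 7 tumors. In control replicate 1, Lrrc26 had 820 reads, and a count of 0 allows a share of up to 0.366% there, counting error only. Reads of Lrrc26 transcripts that run past the annotated end and reads of these neighbors cannot be told apart in gene counts. Man1b1, a mannosidase gene 41158 bases beyond Lrrc26, was at 2863.5 ± 136 against 1984 ± 145 with no overlap. Before Lrrc26, Hnmt, which inactivates histamine, was at 182 ± 80.1 against 71.2 ± 23.6 and Nsmf at 2770 ± 396 against 3682 ± 771, both with overlapping groups. The small nuclear RNA gene Gm25518 had 0 in all V-125-treated tumors and at most 19.6 in a control tumor.

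**Figure D5:**
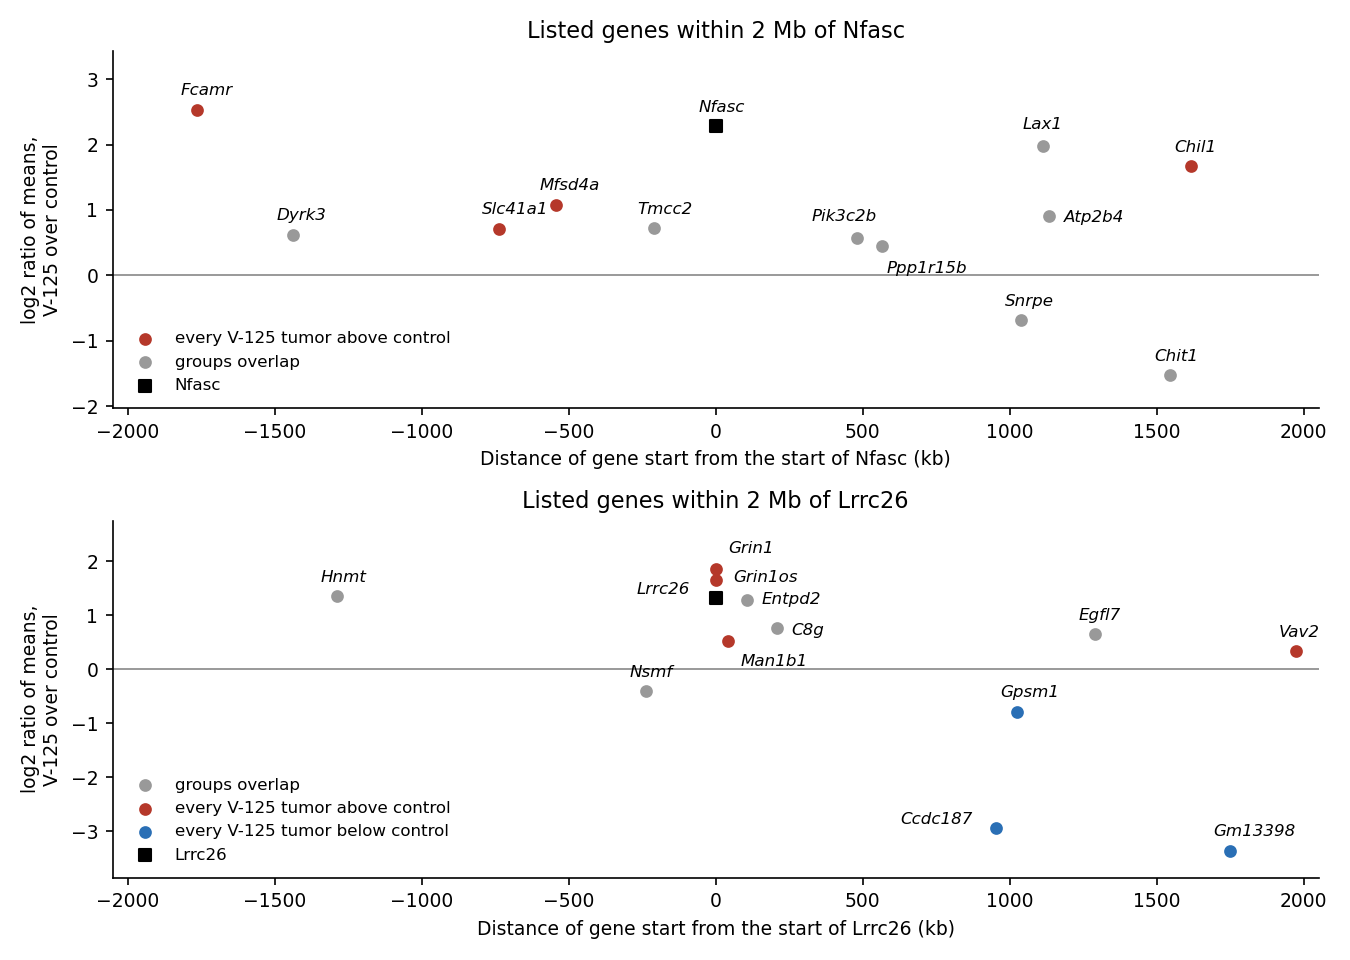
Log2 ratio of mean normalized counts, V-125 over control (vertical axes), of listed genes against the distance of their start from the start of Nfasc (top) or Lrrc26 (bottom) in kb, with colors for groups that do or do not overlap. Near Nfasc 10 of 12 genes and near Lrrc26 8 of 13 have a higher mean with V-125, beside 51.4% of all listed genes, and Grin1 and Grin1os sit next to Lrrc26 with every V-125-treated tumor above control; Gm25518, at 0 in 1 group, has no ratio and is not drawn.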

How the data were processed

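RNA from 12 mammary tumors of female MMTV-Neu mice was measured, 4 per diet, with groups and replicate numbers taken from the sample labels. Per the submitters' processing notes the reads were aligned with STAR (2.6.1d) and counted per gene with featureCounts (1.5.0-p3), and the study names limma for its comparisons. The genome build and the strand setting are not given in the sources used here. Of 1589 gene identifiers, 1588 matched GENCODE M21 on GRCm38, 1537 with the same coordinates.

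The V-125 table, as the authors deposited it, holds raw read counts, normalized counts (a signal, the count over 1 size factor per tumor) and FPKM, which the authors scaled to gene length and to the reads counted on genes. The authors deposited group means of normalized counts for both tables. Both tables also hold the authors' log2 fold changes, p-values and adjusted p-values, and the bexarotene table −log10 of the adjusted p-value and a rescaled fold change. None of these was used, except that the authors' deposited p-values show that both lists stop at an unadjusted p-value of 0.05.

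The members and the gene lists were chosen with earlier results of these data known. The counts of all listed genes were fitted with edgeR (4.0.16, quasi-likelihood, filterByExpr) in R 4.3.3. Library sizes were set from the size factors of the table, and log2 fold changes are given without p-values. Standard errors are the absolute log2 fold change divided by the square root of F, and they rest on the selected genes. Alternatives were DESeq2 (1.42.0), limma-voom (3.58.1), library totals, TMM, no filter, log2(FPKM + 1) and log2(FPKM + 0.1), a replicate block and leaving out each tumor. The edgeR, DESeq2 and limma fits were tested on simulated data. Within-group correlations used deviations of log2(normalized count + 1) from group means, and their permutation test was added after the data were seen. Group differences, correlations and motifs used Python 3.11.15, numpy 2.4.6, pandas 2.3.3 and scipy 1.17.1, and figures matplotlib 3.10.9. Named genes are the 3 members, the 5 most like listed genes of each, the 3 nearest listed genes on each side within 2 Mb and every listed gene of the pathway and marker lists. CT030636.2, with the lowest correlation, was named after its values were seen. Promoter windows are from RefSeq (GRCm38.p6). Depth was 15571690 to 22574865 reads on genes per tumor, which limits the precision of genes with few reads such as Grin1os, Kcnmb1 and Rxrg.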

Additional observations from a re-analysis of the deposited data

Results flagged for a closer look

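Single tumors far from the other 3 of their group were sought for 45 named genes in both groups, and 7 of these 90 groups of 4 tumors held one by Dixon's test at the 95% level. Chance alone flags about 1 in 20 such groups, but these groups are not independent. Some genes were named because they varied with Nfasc, Chil1 or Lrrc26 between tumors. Nothing is therefore read from the number flagged or from the tumors in which the flags fall. For Chil1, control replicate 1 was at 4715 normalized counts, above the next control tumor at 1961. Ppp1r3c, among the genes most like Chil1 and Lrrc26, was high in V-125 replicate 1 (1270, next 422) and in control replicate 1 (512, next 162). Aass, among the genes most like Nfasc, was low in V-125 replicate 3 (1188, next 1482). Lax1, a neighbor of Chil1, was at 100.1 in V-125 replicate 1 and at most 15.2 in the other V-125-treated tumors. Nrcam was at 42.7 in control replicate 1 and at most 12.7 in the other controls, and L1cam was low in control replicate 3 (166, next 401). Of the 7 values, 3 belonged to control replicate 1 and 2 to V-125 replicate 1.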

How the results depend on the processing

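Of 90 values recomputed under alternatives, 88 were counted as unchanged. Among these, fold changes and ratios kept their direction and moved by less than the spread between replicates, and counts by less than 1.5 times. Correlations kept their direction and moved by less than an error calculated from the leave-one-out values themselves, which is a weak check. The log2 difference of Nfasc was 1.25 with log2(FPKM + 1) in place of 2.27, and 2.03 with log2(FPKM + 0.1). Its FPKM in control tumors is below 1, so that the added 1 shrinks the difference by construction. The correlation of Nfasc and Chil1 turned from −0.25 to 0.11 without control replicate 1, and the cause was not tested. With each tumor left out in turn, log2 fold changes were 2.09 to 2.53 for Nfasc, 1.44 to 2.17 for Chil1 and 1.14 to 1.63 for Lrrc26. The correlation was 0.91 to 0.99 for Chil1 and Lrrc26, −0.53 to 0.11 for Nfasc and Chil1 and −0.46 to −0.022 for Nfasc and Lrrc26. Between 382 and 431 listed genes, in place of 335, then had every V-125-treated tumor above every control tumor, all 3 genes among them.

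Tumors of the same replicate number share only a number. Their deviations from the group means correlated between −0.17 and 0.089 over genes, and 1 of 4 V-125-treated tumors correlated best with its own number. With the number as a replicate block, log2 fold changes were 2.24 for Nfasc, 1.79 for Chil1 and 1.35 for Lrrc26. No paired analysis was possible for bexarotene because only group means were used.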
